A study of Clytia hemisphaerica and Astroides calycularis and Pocillopora acuta with 16 samples.

Results

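The planula larva of the reef coral Pocillopora acuta was cut into an aboral and an oral end, and the RNA of each end was sequenced. These libraries were chosen by their labels alone: 4 of the 16 samples of the series, made of 2 aboral libraries (colonies C3 and C5) and 2 oral libraries (the same colonies). Larvae were released by 2 colonies propagated by fragmentation in an aquarium, carried their algal symbionts, and had no treatment, genotype or age in their labels. Each library pooled a few cut ends, in numbers that differed between ends and colonies. All 19922 gene models of the count table entered the comparison of aboral with oral ends within a colony. The other samples were planulae of the coral Astroides and the hydrozoan Clytia, and 4 Astroides libraries (2 aboral, 2 oral) are used at the end. No Pocillopora identifier matched the reference gene table used here, so genes are named by the protein identifier of the count table, without its version suffix, and by the name or protein domain that the study lists for that gene or its ortholog.

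The aboral pole of a swimming planula leads in the direction of swimming and is the end that attaches at settlement, while the oral pole becomes the mouth region of the polyp. In cnidarians, Wnt ligands and their targets mark the oral end, and forkhead factors of the FoxQ2 family, Six3/6, FGF ligands and secreted inhibitors of Wnt signalling mark the aboral end. Wnt ligands bind Frizzled receptors, while SFRP and Wnt inhibitory factor (WIF) proteins bind the ligand and Dickkopf proteins block the co-receptor. The aboral ectoderm of coral planulae also carries sensory, neurosecretory and mucus-producing gland cells.

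The 4 libraries held between 20256336 and 24838448 counted reads, and between 18881 and 18927 gene models had a read in each. In a principal component analysis of log2 levels the first component (62.9% of the variance) separated the colonies and the second (31.9%) separated the ends. Deviations of the C3 libraries from the mean of their end had a correlation of 0.83 across 17164 genes between the aboral and the oral end, so libraries of the same colony deviated together and the colony was a term of the fit. Levels are given as CPM, the reads of a gene scaled to a library of 1000000 after normalization by the trimmed mean of M values (TMM), always for colony C3 first and C5 second. Log2 fold changes are aboral minus oral, with the standard error (SE) after the ± sign. CPM values were not divided by gene length, so levels are compared within a gene only.

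Of 17164 genes tested, 1381 (8.05%) differed between the ends (edgeR quasi-likelihood test with colony in the fit, Benjamini-Hochberg adjusted p under 0.05). The aboral end was higher for 656 genes (3.82%) and the oral end for 725 (4.22%), and 163 genes (0.95%), 96 aboral (0.559%) and 67 oral (0.39%), passed a test against a 2-fold change. Called log2 fold changes had a median size of 1.34 on the aboral side and 1.41 on the oral side. They exceeded 3 in size for 100 genes of the former and 64 of the latter. Genes called aboral took 9.47% and 9.12% of the reads of the aboral libraries and 3.68% and 4.08% of those of the oral libraries. Genes called oral took 7.16% and 5.50% of oral reads and 2.74% and 2.57% of aboral reads. Direction was the same in both colonies for 1379 of the 1381 called genes and for 71.8% of all genes tested. The test itself favours genes whose colonies agree, so the count among called genes is not separate evidence of replication. With 2 colonies and 1 residual degree of freedom, no gene passed the adjusted threshold when the colony was left out of the fit (1587 genes at an unadjusted p under 0.05) or when any library was left out (632 to 1683 genes).

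**Figure D1:**
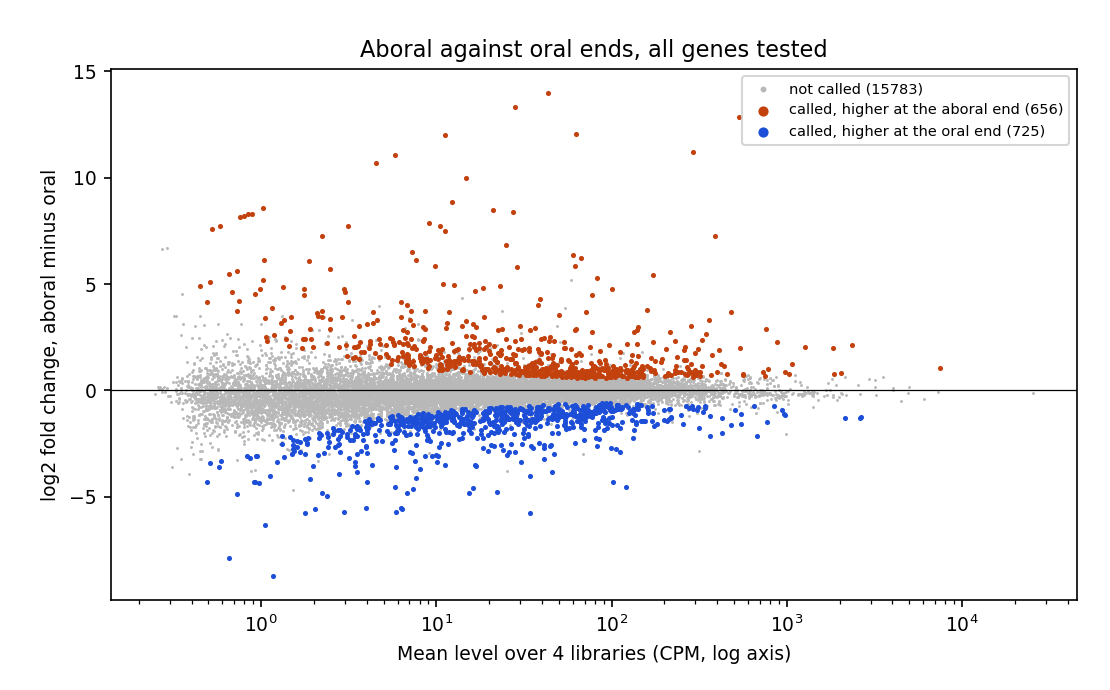
Each point is 1 of the 17164 genes tested, with the mean level over the 4 Pocillopora libraries in CPM on a log axis across and the fitted log2 fold change (aboral minus oral) upward. The 656 aboral and 725 oral genes called at an adjusted p under 0.05 are coloured, and the aboral side reaches further from 0; fitted values of genes with no read at 1 end depend on the prior count.

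**Figure D2:**
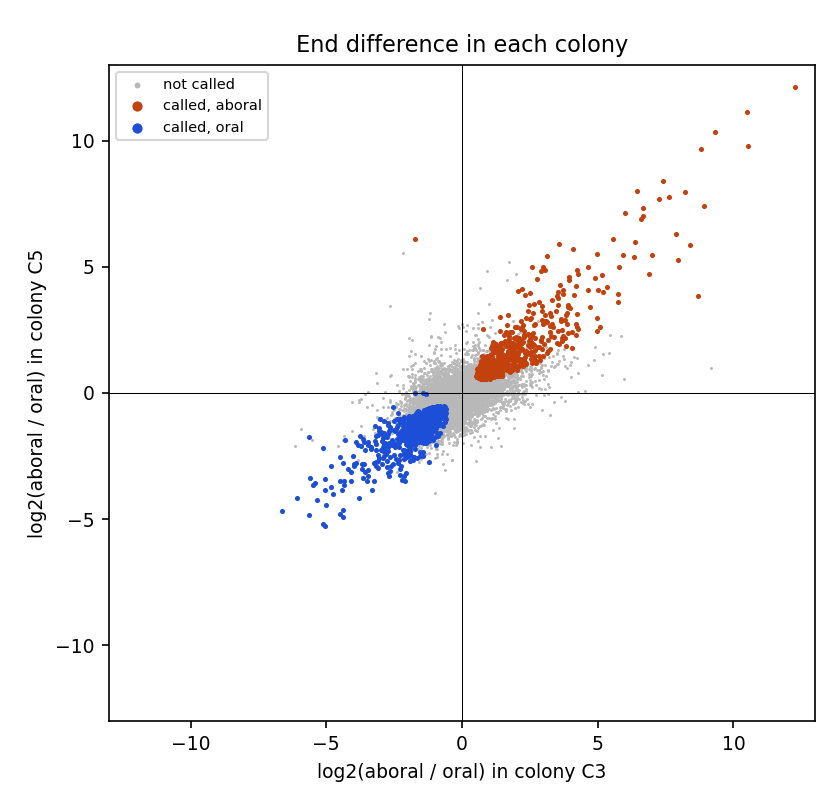
The log2 ratio of aboral to oral level in colony C3 is plotted against that in colony C5 for the 17164 genes tested, with a prior count of 2 in each level. Called genes lie in the quadrants where both colonies have the same sign, with 2 exceptions among the 1381. The test itself favours genes whose colonies agree.

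The study lists 7 genes as aboral and 5 as oral in all 3 species, a choice that used these libraries, so their counts are a description of size and not independent evidence of direction. Of the aboral axis genes, 7 of 7 were called aboral, and of the oral axis genes 5 of 5 were called oral. The ends did not overlap for any of the 12 genes. Over all genes tested the same held for 38.6% (19.8% with the aboral end higher, 18.7% with the oral end higher).

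Among the transcription factors, a forkhead gene named FoxQ2a here (XP_027055233) stood at 18.9 and 23.6 CPM aborally and 0.672 and 0.656 CPM orally. Its log2 fold change was 4.99 ± 0.26 (edgeR adjusted p = 0.0035). That name was given to the ortholog found in all 3 species, while the study's marker list gives FoxQ2a as XP_027053483. Six3/6 (XP_027043093), which patterns the anterior end of many larvae, was at 73.9 and 80.8 CPM at the aboral end and 9.52 and 24.3 CPM at the oral end, a log2 fold change of 2.32 ± 0.31 (edgeR adjusted p = 0.022). A homeodomain gene (XP_027046345) had 72 and 73.8 CPM at the aboral end and 14.5 and 14.8 CPM at the oral end, a log2 fold change of 2.31 ± 0.14 (edgeR adjusted p = 0.0050). All 3 were higher aborally in both colonies, and Six3/6 had the widest spread of these, with an oral level in C5 above that in C3.

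The aboral axis genes also held 4 signalling genes. FGFa1 (XP_027043936), a fibroblast growth factor ligand, measured 36 and 76.6 CPM at the aboral end and 0.362 and 1.75 CPM at the oral end, a log2 fold change of 5.81 ± 0.30 (edgeR adjusted p = 0.0035). Frizzled 5/8 (XP_027048131), a Wnt receptor, measured 258 and 246 CPM at the aboral end and 30.0 and 33.7 CPM at the oral end, a log2 fold change of 2.98 ± 0.14 (edgeR adjusted p = 0.0028). Both were higher aborally in each colony, and their ends did not overlap. SFRP (XP_027036807), a secreted protein with a Frizzled domain, was at 501 and 594 CPM at the aboral end and 92.8 and 118 CPM at the oral end, a log2 fold change of 2.38 ± 0.13 (edgeR adjusted p = 0.0040). Dickkopf (XP_027048253) had 1172 aboral reads in all and 2 oral reads, 1 in each colony, a ratio of 509.9 (95% exact counting interval 141 to 4215), at 21.7 and 27.2 CPM aborally. Counting intervals such as this one cover counting error only.

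The oral axis genes gave the reverse picture. A Wnt ligand (XP_027043371) was at 0.0825 and 0.211 CPM aborally against 4.5 and 4.73 CPM orally, a log2 fold change of -4.94 ± 0.50 (edgeR adjusted p = 0.013). A T-box gene (XP_027055802), of the transcription factor family that includes Brachyury, was at 9.2 and 6.7 CPM aborally against 53.2 and 37.5 CPM orally, a log2 fold change of -2.51 ± 0.16 (edgeR adjusted p = 0.0057). An HMG-box gene (XP_027047017) was at 0.454 and 0.0843 CPM aborally against 18.8 and 6.26 CPM orally, a log2 fold change of -5.56 ± 0.35 (edgeR adjusted p = 0.0057). Its oral level was higher in C3 than in C5, while those of the Wnt ligand were close. The WIF domain gene (XP_027051823) was at 2.19 and 4.59 CPM aborally against 15.5 and 20.3 CPM orally, a log2 fold change of -2.46 ± 0.26 (edgeR adjusted p = 0.014). A pectin acetylesterase domain gene (XP_027051607) was at 3.75 and 3.92 CPM aborally against 78.7 and 49.9 CPM orally, a log2 fold change of -4.03 ± 0.24 (edgeR adjusted p = 0.0046).

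**Figure D3:**
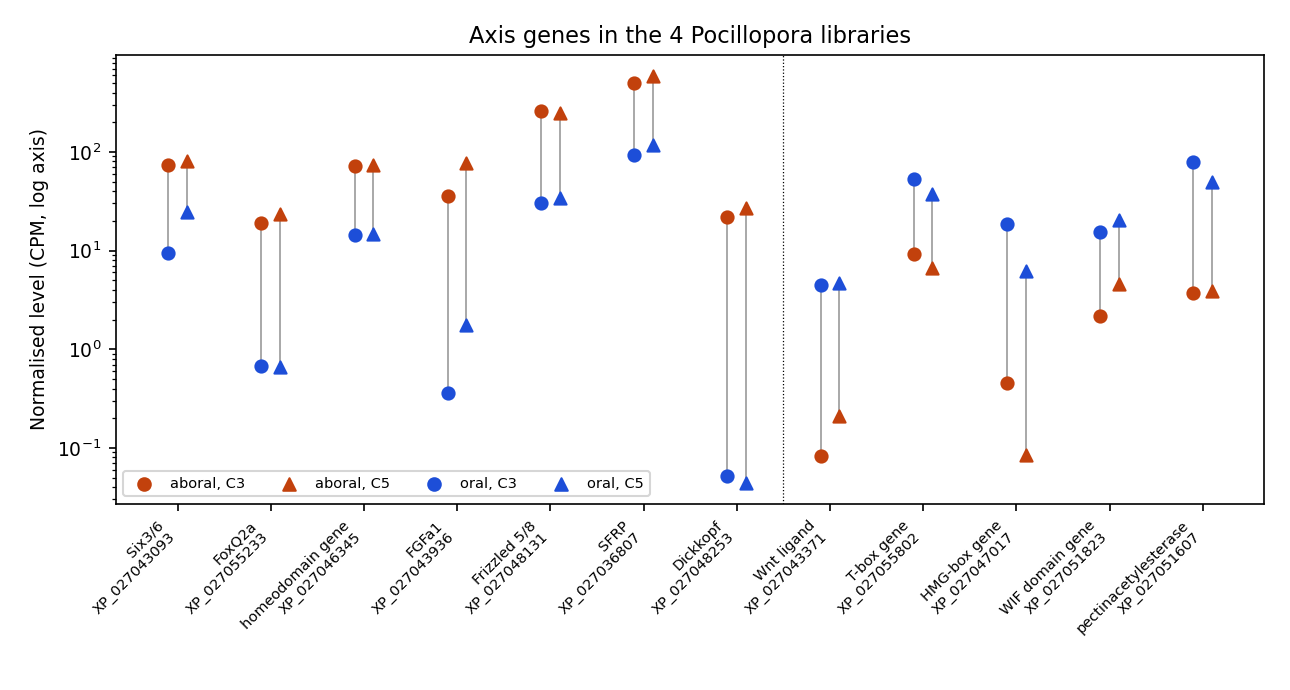
Levels in CPM on a log axis of the 7 aboral (left of the dotted line) and 5 oral axis genes in each of the 4 Pocillopora libraries; circles are colony C3, triangles colony C5, and a grey line joins the ends of a colony. Dickkopf fell from 21.7 and 27.2 CPM aborally to 1 read in each oral library, and the aboral and oral points do not overlap for any of the 12 genes.

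Wnt ligands were higher at the oral end with 1 exception that did not pass the main edgeR test. Of 11 genes with a Wnt domain, all of which were tested, 10 were called oral and 0 aboral, with a median log2 fold change of -2.81 beside -0.03 over all genes tested. Domain names were at hand only for genes that the study lists, partly for an end difference in these libraries, so such family counts are not independent evidence of direction. Over all genes tested 3.82% were called aboral and 4.22% oral, and the list counts below stand beside these shares. For the other protein families, apart from the general cell functions below, genes known only from a table of Clytia cell cluster markers were left out. Their members, or orthologs of them, are listed for an end difference in a species of the study or for an aboral cell type. XP_027057346 was at 10.9 and 9.23 CPM aborally against 229 and 231 CPM orally, a log2 fold change of -4.51 ± 0.15 (edgeR adjusted p = 0.0017). XP_027053052 was at 7.63 and 12.4 CPM aborally against 221 and 167 CPM orally, a log2 fold change of -4.29 ± 0.30 (edgeR adjusted p = 0.0064). XP_027056914 was near absence aborally, at 0.206 and 0.211 CPM aborally against 14.5 and 8.45 CPM orally, a log2 fold change of -5.72 ± 0.37 (edgeR adjusted p = 0.0059). The ligands differed in how far their level fell toward the aboral end. XP_027043512 had 40.3 and 49.1 CPM there against 275 and 164 CPM orally (-2.25 on the log2 scale). XP_027043509 had 16 and 31.9 CPM against 104 and 126 CPM (-2.33). XP_027050567 had the smallest oral difference, 49.9 and 62.3 CPM aborally against 99.8 and 109 CPM orally, a log2 fold change of -0.90 ± 0.13 (edgeR adjusted p = 0.024). The remaining oral calls, XP_027040481, XP_027043510 and XP_027056895, had log2 fold changes of -4.59, -2.81 and -2.71. XP_027040481 showed a colony difference at the oral end, with 48.4 and 14.3 CPM. A single ligand, XP_027036390, pointed the other way without passing the main test (log2 fold change 3.14 ± 0.69, edgeR adjusted p = 0.059). It was at 6.02 and 21.2 CPM aborally against 0.0517 and 4.29 CPM orally. Its oral level in C5 was close to its aboral level in C3. DESeq2, limma-voom and edgeR with no filter on low counts each called 1 of the 11 ligands aboral. XP_027036390 was the only ligand with a positive value in the main fit.

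Modulators of Wnt signalling divided between the ends. Of 9 genes tested, 3 were called aboral (SFRP, Frizzled 5/8 and Dickkopf, above) and 4 oral. A gene with a Frizzled and a netrin-like (NTR) domain (XP_027037557) was at 0.124 and 0.0843 CPM aborally against 8.53 and 3.19 CPM orally, a log2 fold change of -5.71 ± 0.47 (edgeR adjusted p = 0.0086). A second Dickkopf domain gene (XP_027046532) lay at the opposite end from the first, at 0.33 and 0.422 CPM aborally against 9.46 and 5.73 CPM orally, a log2 fold change of -4.28 ± 0.40 (edgeR adjusted p = 0.011). A gene with the ectodomain of ZNRF3, a ubiquitin ligase that removes Frizzled receptors in vertebrates (XP_027042554), was at 10.8 and 14.3 CPM aborally against 81.5 and 71.5 CPM orally, a log2 fold change of -2.61 ± 0.19 (edgeR adjusted p = 0.0069). The WIF domain gene made the fourth. A further Frizzled receptor (XP_027044093, 141 and 113 CPM aborally against 186 and 155 CPM orally) and a Frizzled domain gene (XP_027048626, 6.06 and 3.25 CPM aborally against 11.6 and 6.7 CPM orally) did not pass (edgeR adjusted p = 0.098 and 0.064).

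Forkhead genes, which encode winged helix transcription factors, lay at both ends. Of 14 genes, 12 were tested, 6 (50%) were called aboral and 4 (33.3%) oral, beside 3.82% and 4.22% over all genes tested. FoxQ2-nematostella_a2 (XP_027053555) was counted at 57.4 and 116 CPM aborally and had 0 reads in both oral libraries, at least 1199.6-fold lower there against a floor of 3 reads over both oral libraries. FoxQ2-nematostella_a1 (XP_027053483) was at 42.6 and 66.1 CPM aborally against 0 and 0.306 CPM orally, a log2 fold change of 8.39 ± 0.48 (edgeR adjusted p = 0.0044). FoxQ2-nematostella_b (XP_027059304) was at 153 and 86.4 CPM aborally against 0.517 and 2.19 CPM orally, a log2 fold change of 6.37 ± 0.61 (edgeR adjusted p = 0.012). With XP_027055233 above, the 4 genes named FoxQ2 were all called aboral. The other aboral forkhead calls were XP_027050168, at 25.9 and 17.5 CPM aborally against 0.672 and 2.8 CPM orally, and XP_027040193. The latter stood at 3.88 and 6.74 CPM aborally against 0.465 and 0.481 CPM orally. On the oral side, XP_027039430 was at 1.11 and 0.59 CPM aborally against 16.5 and 12.3 CPM orally. XP_027037524 stood at 3.26 and 6.79 CPM aborally against 24.7 and 39.4 CPM orally, so the ends were well apart in both. A gene with the HNF3 (FoxA) C-terminal domain (XP_027055756), FoxA being a marker of the mouth and pharynx in other cnidarians, was at 59.2 and 43.3 CPM aborally against 198 and 126 CPM orally, a log2 fold change of -1.64 ± 0.13 (edgeR adjusted p = 0.0076). The fourth oral call was XP_027054494, with a log2 fold change of -2.35.

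Homeobox genes among those listed were mostly oral. Of 32 genes, 30 were tested, 17 (56.7%) were called oral and 6 (20%) aboral, beside 4.22% and 3.82% over all genes tested. Their median log2 fold change was -2.46. ISX-like (XP_027046639) was the most one-sided aboral member, with 14.9 and 29.9 CPM aborally and 0 reads in both oral libraries, at least 310.3-fold lower orally on the same floor. XP_027036745 was at 273 and 193 CPM aborally against 28.1 and 40.3 CPM orally, a log2 fold change of 2.76 ± 0.27 (edgeR adjusted p = 0.012). The remaining aboral calls, beside Six3/6 and the homeodomain axis gene, were XP_027043497 (1.43 on the log2 scale) and XP_027038910 (0.73). Oral members with the largest changes were XP_027053907, XP_027053895 and XP_027038872. XP_027053907 was at 0.413 and 0.126 CPM aborally against 16.5 and 8.14 CPM orally, a log2 fold change of -5.52 ± 0.34 (edgeR adjusted p = 0.0056). XP_027053895 was at 0.0413 and 0.295 CPM aborally against 8.69 and 6.87 CPM orally. XP_027038872, at 0.165 and 0 CPM aborally against 5.59 and 2.36 CPM orally, had no aboral read in C5. A further gene of neighbouring identifier, XP_027053919, was at 7.88 and 7.38 CPM aborally against 96.1 and 52.4 CPM orally, a log2 fold change of -3.22 ± 0.24 (edgeR adjusted p = 0.0065). A LIM homeobox gene (XP_027056931) was at 7.14 and 5.35 CPM aborally against 45.3 and 46.1 CPM orally, a log2 fold change of -2.88 ± 0.19 (edgeR adjusted p = 0.0062). XP_027043454 differed between colonies as well as ends, at 2.89 and 0.632 CPM aborally against 35.1 and 6.17 CPM orally, a log2 fold change of -3.48 ± 0.24 (edgeR adjusted p = 0.0062), and the ratio of the ends was alike in both colonies.

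The other transcription factors with a listed domain, 15 genes of the T-box, HMG-box, helix-loop-helix, RFX, DM, AP-2 and Zic families, gave 5 aboral and 5 oral calls among 13 tested. TBX5 (XP_027059732) opposed the oral T-box gene, at 76.2 and 109 CPM aborally against 7.55 and 8.36 CPM orally, a log2 fold change of 3.52 ± 0.17 (edgeR adjusted p = 0.0028). Helix-loop-helix genes also lay at both ends. XP_027058337 was at 4.74 and 4.13 CPM aborally with 1 oral read, a ratio of 185 (95% exact counting interval 32.9 to 7354). XP_027048334 was at 2.52 and 1.73 CPM aborally against 23.2 and 13.5 CPM orally, a log2 fold change of -3.09 ± 0.22 (edgeR adjusted p = 0.0064). A Zic family zinc finger gene (XP_027039355) was at 0.33 and 0.506 CPM aborally against 18.9 and 7.44 CPM orally, a log2 fold change of -4.84 ± 0.50 (edgeR adjusted p = 0.013). HMG-box gene XP_027058534 was aboral, at 103 and 114 CPM aborally against 7.91 and 25.3 CPM orally, a log2 fold change of 2.89 ± 0.38 (edgeR adjusted p = 0.022). RFX4 (XP_027047616) and RFX6 (XP_027036421), of a family that regulates ciliary and secretory genes in other animals, were also aboral. RFX6 was at 1146 and 764 CPM aborally against 556 and 471 CPM orally, a log2 fold change of 0.87 ± 0.15 (edgeR adjusted p = 0.036), and RFX4 had a log2 fold change of 1.67.

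Growth factor ligands and their antagonists numbered 13, all tested. Of these, 6 (46.2%) were called aboral and 3 (23.1%) oral, beside 3.82% and 4.22% over all genes tested. Beside FGFa1, the FGF domain gene XP_027043935 was at 2.6 and 5.14 CPM aborally against 0.103 and 0.613 CPM orally, a log2 fold change of 3.51 ± 0.50 (edgeR adjusted p = 0.025). FGF22-like (XP_027051354) was at 19.1 and 10.8 CPM aborally against 3.26 and 3.68 CPM orally, a log2 fold change of 2.04 ± 0.31 (edgeR adjusted p = 0.028). A further FGF gene, FGF-like (XP_027049367), was at 30.7 and 71.4 CPM aborally against 16.2 and 2.41 CPM orally and missed the threshold (edgeR adjusted p = 0.16). Its oral level was higher in C3 than in C5, and the colonies stood the other way round aborally. FGF-like is the FGF gene in the study's marker list for apical cells. The name FGFa1 was given here to the ortholog found in all 3 species. In the opposite direction, the FGF domain gene XP_027060644 was at 13.6 and 8.01 CPM aborally against 87.5 and 79.3 CPM orally, a log2 fold change of -2.99 ± 0.20 (edgeR adjusted p = 0.0062). A Noggin gene (XP_027041952), a secreted antagonist of bone morphogenetic proteins, was at 22.9 and 15.8 CPM aborally against 0.103 and 0.525 CPM orally, a log2 fold change of 5.83 ± 0.55 (edgeR adjusted p = 0.011). A second Noggin gene (XP_027043608) was at 17.2 and 25.3 CPM aborally against 17.1 and 14.5 CPM orally (edgeR adjusted p = 0.35). Members of the transforming growth factor beta family lay at both ends. XP_027042103 was called aboral at 7.67 and 14.9 CPM aborally against 1.24 and 1.84 CPM orally, as was GDF11 (XP_027045428) at 74.1 and 74.7 CPM aborally against 22.7 and 35.2 CPM orally. XP_027051421 was called oral at 29 and 19.9 CPM aborally against 76.4 and 48.1 CPM orally, a log2 fold change of -1.34 ± 0.14 (edgeR adjusted p = 0.013).

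Secreted matrix and adhesion proteins carried some of the widest aboral differences. Of 23 genes with a thrombospondin type 1 domain, a module of extracellular and adhesive proteins, 8 were called aboral and 1 oral, with a median log2 fold change of 1.61. That median was 1.06 without the aboral library of C5, and 2.28 within C3 and 0.77 within C5. XP_027059143 was counted at 959 and 1170.4 CPM aborally against 0.103 and 0.175 CPM orally, a log2 fold change of 12.83 ± 0.25 (edgeR adjusted p = 0.00052). The nearby identifiers XP_027059309 and XP_027059147 were also one-sided. XP_027059309, which also has a tyrosinase domain, had 869 aboral and 3 oral reads, a ratio of 252 (95% exact counting interval 86 to 1225). XP_027059147 was at 2.97 and 3.75 CPM aborally against 0.259 and 0 CPM orally, a log2 fold change of 4.76 ± 0.88 (edgeR adjusted p = 0.041). A spondin-like glycoprotein (XP_027045544) was at 732 and 1020.2 CPM aborally against 38.4 and 117 CPM orally, a log2 fold change of 3.68 ± 0.31 (edgeR adjusted p = 0.0090). Genes with a von Willebrand factor A domain, another adhesion module, gave 5 aboral and 2 oral calls of 14. Their median log2 fold change was 0.95, and 0.15 without the aboral library of C5. COCA1-like (XP_027043201) was at 473 and 1076 CPM aborally against 5.33 and 4.11 CPM orally, a log2 fold change of 7.25 ± 0.45 (edgeR adjusted p = 0.0056). XP_027059066, an oral member, was at 24.4 and 27.7 CPM aborally against 212 and 180.4 CPM orally, a log2 fold change of -2.91 ± 0.16 (edgeR adjusted p = 0.0040). Another member, XP_027043835, was at 18.3 and 26.1 CPM aborally against 0.103 and 0.131 CPM orally, a log2 fold change of 7.5 ± 0.31 (edgeR adjusted p = 0.0027).

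Collagen triple helix genes had 0 aboral and 3 oral calls of 6 tested. XP_027036444 was at 1.44 and 1.6 CPM aborally against 49.1 and 36.5 CPM orally, a log2 fold change of -4.79 ± 0.23 (edgeR adjusted p = 0.0030). XP_027052254 and XP_027059033, the latter with a von Willebrand A domain, were at 7.55 and 17.5 CPM and 43.1 and 40.5 CPM orally and had log2 fold changes of -2.87 and -2.79. The others did not pass (edgeR adjusted p between 0.063 and 0.89). XP_027043999 was at 1.4 and 1.73 CPM aborally against 3.62 and 3.15 CPM orally, XP_027044503 at 5.86 and 12.3 CPM aborally against 1.24 and 5.91 CPM orally. XP_027044537, at 17.4 and 36 CPM aborally against 20.4 and 28.8 CPM orally, had overlapping ends. Trypsin domain genes, which encode serine proteases, were called in 6 of 6 cases, 4 oral and 2 aboral. The oral ones were XP_027039790, XP_027042918, XP_027046893 and XP_027047213, with log2 fold changes between -2.91 and -1.87, and XP_027039790 was at 64.2 and 48.6 CPM aborally against 262 and 159 CPM orally. XP_027040367 was called aboral at 124 and 49.9 CPM aborally against 24.4 and 15.6 CPM orally, a log2 fold change of 2.02 ± 0.20 (edgeR adjusted p = 0.012), as was TLL1-like (XP_027036824, 1.40). Metalloproteases, 18 genes of the astacin, reprolysin, matrixin and M13 families, gave 4 aboral and 2 oral calls (8 and 2 with no filter on low counts). Their median log2 fold change was 1.39, with 2.41 within C3 and 0.52 within C5. The aboral calls included an M13 peptidase (XP_027042738) at 14.6 and 9.19 CPM aborally against 0.465 and 0.788 CPM orally. Another was ADAM-like (XP_027054947) at 37.7 and 31.2 CPM aborally against 2.59 and 3.59 CPM orally.

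Markers of gland mucous cells gave the most aboral calls of the cell type lists. The 5 lists that follow are genes that the study assigned to cell types, partly on end differences in these libraries, so their direction is not independent evidence. Of 41 gland mucous markers, all tested, 32 (78%) were called aboral and 0 oral, beside 3.82% and 4.22% over all genes tested. Their median log2 fold change was 1.6, and 39 had the same sign in both colonies. Mucin2 (XP_027054112), a gel-forming mucin with von Willebrand D domains, was at 531 and 655 CPM aborally against 103 and 83.1 CPM orally, a log2 fold change of 2.67 ± 0.19 (edgeR adjusted p = 0.0065). Mucin1 (XP_027043110) was at 709 and 502 CPM aborally against 299 and 243 CPM orally, a log2 fold change of 1.15 ± 0.13 (edgeR adjusted p = 0.017), so its oral level was a larger share of the aboral one. A further mucin-like gene (XP_027054018) was at 141 and 99.3 CPM aborally against 36.9 and 21.8 CPM orally, a log2 fold change of 2.06 ± 0.14 (edgeR adjusted p = 0.0062). Other called members were the glycosyltransferases MGT4-like1 (XP_027051383, 2.35 on the log2 scale), B3GALT-like2 (XP_027043544, 1.59) and the sulfotransferase domain genes XP_027046046 (2.56) and XP_027038533 (1.72). An oxidoreductase domain gene (XP_027049697) was at 111 and 151 CPM aborally against 1.24 and 2.32 CPM orally, a log2 fold change of 6.21 ± 0.19 (edgeR adjusted p = 0.0014). XP_027050443 was at 1556 and 6049.9 CPM aborally against 330.3 and 1499 CPM orally, a log2 fold change of 2.12 ± 0.15 (edgeR adjusted p = 0.0064), with levels several times higher in C5 at both ends. XP_027037964 was called on the C5 libraries alone, at 0 and 242 CPM aborally against 0.207 and 3.41 CPM orally, and is 1 of the 2 called genes without a shared direction.

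Apical cell markers were mostly called aboral. Of 24 genes, 18 were called aboral and 0 oral, 12 of them past 2-fold, with a median log2 fold change of 2.87. Members given above include FoxQ2-nematostella_a1, FoxQ2-nematostella_a2, Dickkopf, SFRP and ISX-like. A gene with an SH3 domain (XP_027043504) was at 36.5 and 52.1 CPM aborally against 2.07 and 0.919 CPM orally, a log2 fold change of 4.91 ± 0.42 (edgeR adjusted p = 0.0093). OXDA-like (XP_027057412), an FAD-dependent oxidase, was at 43.3 and 90.5 CPM aborally against 9.26 and 14.6 CPM orally, a log2 fold change of 2.44 ± 0.17 (edgeR adjusted p = 0.0064). A multicopper oxidase (XP_027057044) had 50.8 and 95.4 CPM aborally but 0 and 48.1 CPM orally, so the oral libraries were apart from each other (edgeR adjusted p = 0.26). RFX6 and POXA-like (XP_027045474, 631 and 776 CPM aborally against 356 and 493 CPM orally) were called with smaller changes of 0.87 and 0.74 on the log2 scale.

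Neurosecretory 1 markers gave 16 aboral and 0 oral calls of 28, with a median of 2.21. FoxQ2-nematostella_b, given above, belongs to this list and was its member with the highest mean CPM. A small cysteine-rich protein (XP_027054855) was at 47.9 and 50.9 CPM aborally against 0.0517 and 0.788 CPM orally, a log2 fold change of 6.85 ± 0.56 (edgeR adjusted p = 0.0083). Of the called members, 6 were G protein-coupled receptors, including the peptide receptor genes XP_027045018, XP_027058973 and XP_027058959, with log2 fold changes of 3.29, 2.96 and 1.96. Neurosecretory 2 markers gave 5 aboral calls of 24 (3 with DESeq2 size factors, 9 with DESeq2 or with no filter on low counts), although 22 had a positive log2 fold change. Their median was 1.39, with 2.05 within C3 and 0.68 within C5. ADAMTS-like1 (XP_027055029), named for a family of metalloproteases, was called at 60.1 and 46.6 CPM aborally against 5.95 and 7.05 CPM orally, a log2 fold change of 3.02 ± 0.21 (edgeR adjusted p = 0.0064), while ADAMTS-like3 (XP_027049633), at 82.8 and 76.8 CPM aborally against 7.24 and 34.8 CPM orally, was not (edgeR adjusted p = 0.081). In C5 the oral level of ADAMTS-like3 was several times that in C3. GLWamide neuron markers gave 5 aboral calls of 16 and a median of 0.62, which was 0.27 without the aboral library of C3. The called genes were GABBR2-like (XP_027036429), FGF22-like, a short transmembrane protein (XP_027053553), a zinc carboxypeptidase (XP_027051936) and PCSK5-like (XP_027047088).

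Neuropeptide precursors, listed independently of these libraries, did not share a direction. RFamide (XP_027051563), whose peptides act in cnidarian neurons, was at 116 and 97.3 CPM aborally against 6.98 and 28 CPM orally, a log2 fold change of 2.85 ± 0.55 (edgeR adjusted p = 0.044), a call lost with DESeq2 size factors. GVWamide (XP_027059473) was higher orally, at 17.5 and 9.99 CPM aborally against 41.9 and 25.8 CPM orally, a log2 fold change of -1.31 ± 0.16 (edgeR adjusted p = 0.017). GLWamide (XP_027060553), a peptide family that induces settlement in hydrozoan and coral larvae, was at 10.6 and 6.03 CPM aborally against 9.77 and 15.4 CPM orally (edgeR adjusted p = 0.37) and the ends overlapped. HFRIamide (XP_027045495) was at 23.2 and 16.9 CPM aborally against 3.15 and 9.89 CPM orally (edgeR adjusted p = 0.11). With DESeq2, 2 of the 5 genes on this list were called aboral and 1 oral. RFamide and HFRIamide were the 2 with a positive log2 fold change. The antimicrobial peptide gene Damicornin (XP_027051004) was at 1.86 and 1.69 CPM aborally against 2.12 and 3.85 CPM orally (edgeR adjusted p = 0.33).

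G protein-coupled receptors, the cell surface receptors for peptides, amines and odorants, gave 23 aboral (48.9%) and 2 oral (4.26%) calls of 47 tested among 49. Over all genes tested 3.82% were called aboral and 4.22% oral. The median log2 fold change of the receptors was 1.58. Their list was partly chosen on these libraries, so its direction is not independent evidence. A rhodopsin family receptor (XP_027060152) was at 230.2 and 63.4 CPM aborally against 11.8 and 2.32 CPM orally, a log2 fold change of 4.49 ± 0.18 (edgeR adjusted p = 0.0027), with a colony difference of similar size at both ends. The lowly counted receptors XP_027055686 and XP_027037711, had 98 and 85 aboral reads and 0 oral reads, at least 28.4-fold and 24.7-fold lower orally. A secretin family receptor (XP_027048838) was at 259 and 309 CPM aborally against 52.9 and 66.4 CPM orally, a log2 fold change of 2.25 ± 0.13 (edgeR adjusted p = 0.0042). The oral calls were XP_027048908, at 0.371 and 1.98 CPM aborally against 3.41 and 7.05 CPM orally, and XP_027035771, at 4.37 and 1.52 CPM aborally against 25 and 4.33 CPM orally. Ligand-gated and voltage-gated channels gave 5 aboral and 1 oral call of 23 tested. The oral one, a neurotransmitter-gated channel (XP_027050437), was at 1.16 and 1.6 CPM aborally against 13.6 and 13.9 CPM orally, a log2 fold change of -3.32 ± 0.26 (edgeR adjusted p = 0.0078). An ankyrin repeat channel (XP_027052782) was called aboral at 587 and 407 CPM aborally against 118 and 136 CPM orally, a log2 fold change of 1.95 ± 0.21 (edgeR adjusted p = 0.015).

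Genes related to taurine and GABA, amino acids that act as osmolytes and transmitters, gave 4 aboral and 0 oral calls of 9. TauDa (XP_027047514), of the family of taurine catabolism dioxygenases, had 6005 aboral reads and 1 oral read, at 133 and 117 CPM aborally, a ratio of 5225 (95% exact counting interval 937 to 206417). A neighbouring TauD gene (XP_027047515) had 300 aboral reads and 1 oral read, at 6.52 and 5.99 CPM aborally, and whether reads are shared between the copies was not tested. A TauE domain gene (XP_027044995), named for a sulfite exporter family, was at 22.1 and 31.2 CPM aborally against 2.79 and 2.76 CPM orally, a log2 fold change of 3.25 ± 0.23 (edgeR adjusted p = 0.0064). GABBR2-like (XP_027036429), related to the metabotropic GABA receptor, was at 103 and 132 CPM aborally against 46.9 and 69.1 CPM orally, a log2 fold change of 1.04 ± 0.13 (edgeR adjusted p = 0.018). Further receptors of that type did not pass. XP_027040334 was at 386 and 247 CPM aborally against 262 and 198 CPM orally (edgeR adjusted p = 0.12), and XP_027040340 at 48.8 and 19.7 CPM aborally against 27.9 and 14.8 CPM orally (edgeR adjusted p = 0.098). The ionotropic GABRB1-like (XP_027040858), VIAAT-like (XP_027037249), a vesicular transporter gene, and a betaine, carnitine and choline transporter (XP_027048844) had log2 fold changes of 0.62, -0.25 and 0.34 and were not called.

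Oxidoreductases with flavin, haem or copper gave 8 aboral (40%) and 3 oral (15%) calls of 20, beside 3.82% and 4.22% over all genes tested. A flavin-binding monooxygenase (XP_027057557) was at 118 and 202 CPM aborally against 3.62 and 4.38 CPM orally, a log2 fold change of 5.29 ± 0.19 (edgeR adjusted p = 0.0020). A lipoxygenase (XP_027036057), an enzyme that oxidizes fatty acids, was at 758 and 551 CPM aborally against 60.5 and 71.6 CPM orally, a log2 fold change of 3.29 ± 0.22 (edgeR adjusted p = 0.0062). The oral calls were all multicopper oxidases: XP_027055985 at 23.9 and 19.9 CPM aborally against 189.9 and 94.9 CPM orally, and XP_027055981 and XP_027055999 with log2 fold changes of -3.92 and -2.98. Cytochrome P450 genes XP_027047911 and XP_027056946 were aboral, at 2.88 and 2.95 on the log2 scale.

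General cell functions, whose lists were drawn by ortholog from part of a table of Clytia cell cluster markers and so did not use these libraries, had smaller differences. Ciliary axoneme genes, which build the motile cilia of the larval surface, gave 12 aboral (34.3%) and 0 oral calls of 35. Over all genes tested 3.82% were called aboral. All 35 ciliary genes had a positive log2 fold change in both colonies, with a median of 0.52. The tektins XP_027052963, at 125 and 135 CPM aborally against 57.7 and 51.7 CPM orally, XP_027059784 and XP_027051828 led this list, with log2 fold changes of 1.25, 1.13 and 0.97. Respiratory chain genes (16) and proteasome genes (17) had 0 calls by edgeR, with 7 and 6 members at an unadjusted p under 0.05. Their medians were 0.35 and 0.28, and limma-voom called 1 respiratory gene. All 16 and all 17 were positive in both colonies too, so that shared direction was not particular to ciliary genes. Ribosomal protein genes (88) had 0 calls, 1 member at an unadjusted p under 0.05 and a median of -0.16 (-0.08 without the oral library of C5). DNA replication genes had a median of -0.46, and 14 of 15 were negative. Of these 1, an MCM helicase subunit (XP_027037463), was called, at 11.1 and 14.1 CPM aborally against 27 and 24 CPM orally, a log2 fold change of -1.03 ± 0.20 (edgeR adjusted p = 0.045). With DESeq2 size factors 0 were called, and with DESeq2, limma-voom or no filter 2 were.

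**Figure D4:**
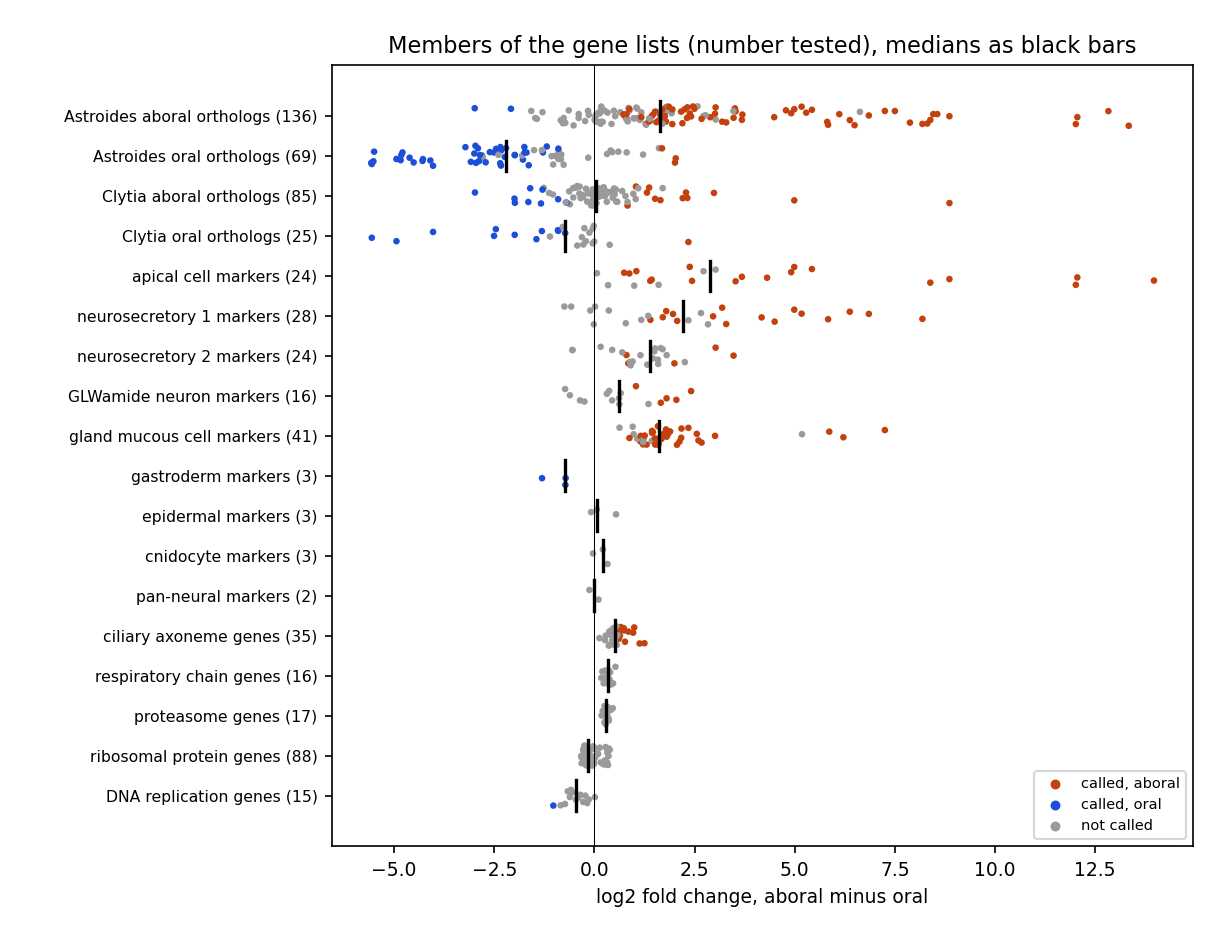
Fitted log2 fold changes (aboral minus oral) of the tested members of 18 gene lists in Pocillopora, with the number tested in brackets, called genes coloured and list medians as black bars. The medians of apical, gland mucous and neurosecretory markers lie right of 0, with 4 of 28 neurosecretory 1 and 2 of 24 neurosecretory 2 markers left of it. The 3 gastroderm markers lie left of 0 and ribosomal protein genes close to 0 (median -0.16); values of genes with 0 reads at 1 end depend on the prior count.

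Markers of other cell classes were also compared between the cut ends. In bulk RNA, fewer cells of a type and less RNA per cell cannot be told apart. The 3 gastroderm markers were all called oral. COA-like2 (XP_027059036) was at 1091 and 1369 CPM aborally against 3267 and 2806 CPM orally, a log2 fold change of -1.31 ± 0.18 (edgeR adjusted p = 0.024). Testican2-like (XP_027036617) was at 424 and 556 CPM aborally against 696 and 926 CPM orally, and ZF-C3H11 (XP_027055412) at 254 and 258 CPM aborally against 458 and 389 CPM orally. Their summed level was 1770.2 and 2182 CPM in the aboral libraries and 4420.0 and 4121 CPM in the oral ones. A digestive filament marker, OIT3-like12 (XP_027046940), was called oral at 47.8 and 38.3 CPM aborally against 158 and 129.7 CPM orally, a log2 fold change of -1.74 ± 0.12 (edgeR adjusted p = 0.0064). The other, Nkx2-8-like (XP_027038915), was at 60.5 and 56.6 CPM aborally against 47.7 and 49.8 CPM orally (edgeR adjusted p = 0.27). No marker was called among 3 cnidocyte, 3 epidermal, 2 specialized epidermis, 2 pan-neural and 2 secretory markers (none at an unadjusted p under 0.05 in edgeR). Over all genes tested 8.05% were called, so the absence of calls among so few markers says little. The 3 cnidocyte markers Znfn845 (XP_027039484), Ncol3 (XP_027042144), a capsule collagen of stinging cells, and Nematogalectin-like (XP_027037748) summed to 28.1 and 55.4 CPM aborally and 28.9 and 42.5 CPM orally. The neural markers ELAV (XP_027049686) and AshA (XP_027048862) summed to 158 and 146 CPM and 162 and 158 CPM. The epidermal markers, Sox3 (XP_027038477), XP_027044136 and XP_027053960, summed to 311 and 387 CPM and 222 and 405 CPM. The secretory markers AshC (XP_027048909) and PA2-like2 (XP_027047046) had log2 fold changes of 0.01 and -0.60. A specialized epidermis marker (XP_027040326) was at 27.6 and 153 CPM aborally against 8.43 and 152 CPM orally, and ShK-like (XP_027057795) at 0.0413 and 1.94 CPM aborally against 0.155 and 3.19 CPM orally, so both followed the colony more than the end. The part of cell make-up in the differences above was not tested.

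Among called genes with an annotation, at least 10 CPM at the higher end and the same direction in both colonies (193 aboral, 86 oral), the largest changes fell mostly on genes already given. Added to these on the aboral side was an Hsp20 family gene (XP_027035811), of the small heat shock chaperones, at 21 and 20.9 CPM aborally against 0 and 0.175 CPM orally, a log2 fold change of 7.73 ± 0.55 (edgeR adjusted p = 0.0064). On the oral side the list was headed by a protein-tyrosine phosphatase domain gene with a SEA domain (XP_027036777), at 0.949 and 1.22 CPM aborally against 102 and 33.6 CPM orally, a log2 fold change of -5.78 ± 0.48 (edgeR adjusted p = 0.0086). It also held a homeodomain gene (XP_027036367), at 0.413 and 0.717 CPM aborally against 16.6 and 11.6 CPM orally. A gene with a Vps62 domain (XP_027052516) was at 0.413 and 0.464 CPM aborally against 16.6 and 5.73 CPM orally. Of genes with no annotation, XP_027041588 had 2684 aboral and 0 oral reads, at least 778-fold lower orally. XP_027058355 was at 573 and 586 CPM aborally against 0.31 and 0.175 CPM orally, a log2 fold change of 11.22 ± 0.26 (edgeR adjusted p = 0.00066). On the oral side XP_027056199, at 1.07 and 0.379 CPM aborally against 58.1 and 1.49 CPM orally, had most of its reads in 1 library. XP_027049849 was at 0.454 and 1.39 CPM aborally against 6.72 and 15.1 CPM orally.

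Orthologs of genes listed for the other species, chosen on other libraries, gave a comparison that did not use Pocillopora values. Over all genes tested 3.82% were called aboral and 4.22% oral. Of 136 tested orthologs of genes higher at the aboral end of Astroides, 70 (51.5%) were called aboral and 2 (1.47%) oral in Pocillopora. Their median log2 fold change was 1.64. Of 69 tested orthologs of Astroides oral genes, 43 (62.3%) were called oral and 3 (4.35%) aboral, with a median of -2.21. The Clytia lists gave smaller values. Among 85 orthologs of Clytia aboral genes, 12 (14.1%) were called aboral and 9 (10.6%) oral (median 0.05, or -0.06 to 0.33 without 1 library). Among 25 orthologs of oral ones, 11 (44%) were called oral and 1 (4%) aboral (median -0.73). The axis genes are members of these lists. Orthologs of Clytia aboral genes that were oral in Pocillopora included a Hedgehog domain ligand gene (XP_027044648), at 16.5 and 21.1 CPM aborally against 64 and 53.8 CPM orally, a log2 fold change of -1.65 ± 0.19 (edgeR adjusted p = 0.017). A pectin acetylesterase gene (XP_027054066) was at 17.4 and 22.7 CPM aborally against 81.6 and 76 CPM orally. A Nanos RNA-binding gene (XP_027040457) was at 73.8 and 67.8 CPM aborally against 166 and 106 CPM orally, and a laminin G gene (XP_027060404) at 91 and 92.8 CPM aborally against 151 and 147 CPM orally. These examples were chosen after their values were seen. The 1 ortholog of a Clytia oral gene called aboral was MGT4-like1, a glycosyltransferase among the gland markers.

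The 5 genes called against the Astroides direction were examined one by one, after their values were seen. The FGF domain gene XP_027060644 and the receptor XP_027035771, orthologs of Astroides aboral genes, were oral in Pocillopora (above). In reverse, XP_027051615 and XP_027051623, both with von Willebrand A and thrombospondin domains, were called aboral. XP_027051615 was at 45 and 728 CPM aborally against 6.88 and 265 CPM orally, and XP_027051623 at 723 and 427 CPM aborally against 204 and 146 CPM orally. A WSC domain gene (XP_027043599) was at 2854 and 2914 CPM aborally against 454 and 1127 CPM orally, a log2 fold change of 2.01 ± 0.33 (edgeR adjusted p = 0.032). XP_027051615 differed far more between colonies than between ends.

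A test of the difference itself was run on 1383 ortholog pairs of Pocillopora and Astroides, in a fit of 8 libraries with colony as a block in Pocillopora. The pairs are those the study lists, many of them for an end difference in either coral, so the share called describes this list only. The end difference differed between the corals for 152 pairs (11%, edgeR quasi-likelihood test of the species by end term, adjusted p under 0.05), with a higher aboral minus oral value in Pocillopora for 69 (4.99%) and a lower one for 83 (6.0%). Signs of the fitted values were the same in both corals for 96 of the 152 and opposite for 56. Of the 56, 26 were positive and 30 negative in Pocillopora. An opposite sign need not be a called end difference in both corals. Some pairs were near 0 in a coral, such as XP_027042432 (-0.23 in Pocillopora) and XP_027052516 (0.23 in Astroides). For XP_027060644 the log2 difference between the corals was -6.74 ± 0.46 (edgeR adjusted p = 0.00086). The gene stood at 13.6 and 8.01 CPM aborally and 87.5 and 79.3 CPM orally in Pocillopora, and 1.45 and 1.83 CPM aborally and 0.0855 and 0.145 CPM orally in Astroides. For the thrombospondin and von Willebrand A gene XP_027052911, at 16.9 and 9.74 CPM aborally and 2.79 and 5.95 CPM orally in Pocillopora, and 2.49 and 1.27 CPM aborally and 21.1 and 23.3 CPM orally in Astroides, the difference was 5.17 ± 0.72 (edgeR adjusted p = 0.0064). The Pocillopora end difference of XP_027052911 alone was not called (edgeR adjusted p = 0.11).

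**Figure D5:**
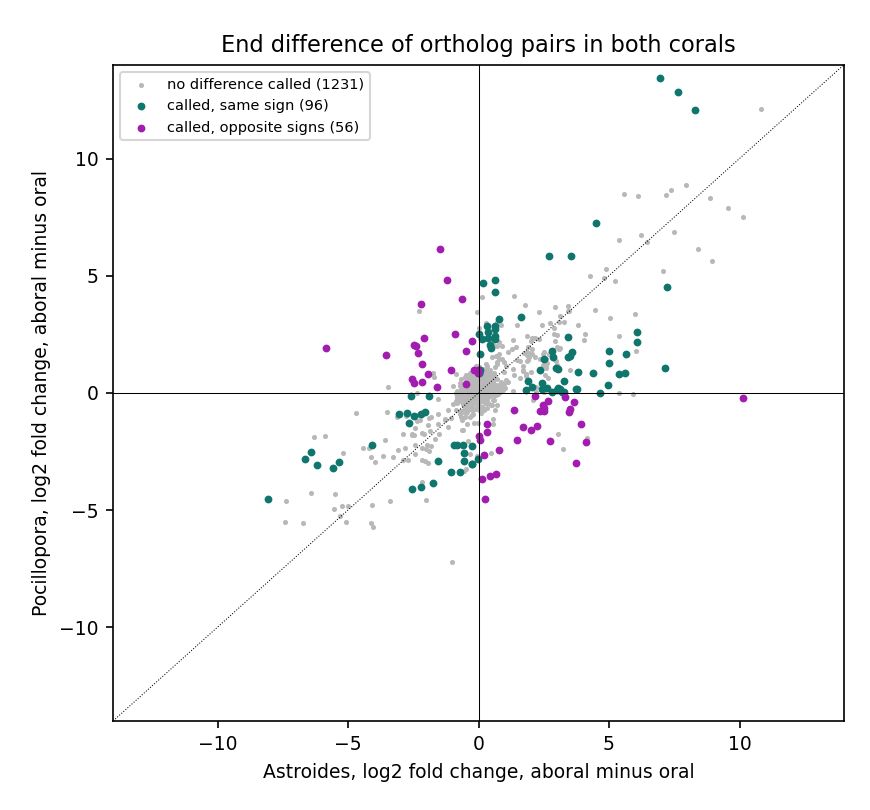
Fitted log2 fold changes (aboral minus oral) of 1383 ortholog pairs in Astroides (across) and Pocillopora (upward), with the 152 pairs whose end difference differed between the corals coloured. The dotted line marks equal values; 96 coloured pairs lie in quadrants of the same sign and 56 in quadrants of opposite sign.

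Differences between colonies stood beside those between ends. Each colony gave a single small pool per end, so colony and pool of larvae cannot be told apart. Of genes tested, 346 (2.02%) differed more than 4-fold between C3 and C5 at both ends in the same direction, on CPM with 1 added. Of these, 199 were higher in C3 and 147 in C5. The 1381 called genes held 39 of the 346, a share of 2.82%, close to that over all genes tested. Genes called oral held 31 of the 39 (4.28% of oral calls), of which 28 were higher in C3. Genes called aboral held 8 (1.22% of aboral calls).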

How the data were processed

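RNA-seq libraries of 2 aboral and 2 oral pools of Pocillopora acuta planula ends (colonies C3 and C5) were compared. The deposited values are raw counts per gene model, made by the authors with STAR gene counting on the Pocillopora damicornis genome; the strand setting is not given in the sources used here, so overlapping antisense genes and near-identical copies are uncertain. Replicates are libraries of different colonies, and with 2 per end p-values measure the spread between these pools only. Counts were filtered by filterByExpr and scaled by TMM, and a quasi-likelihood test (edgeR 4.0.16, legacy mode, R 4.3.3) with colony as a block, as in the study's design, was adjusted by Benjamini-Hochberg over 17164 genes; glmTreat tested against 2-fold. The labels name the parent colony of each library, which pairs the ends. Standard errors are the log2 fold change over the root of F. The Astroides comparison used counts of 1383 pairs with the effective library size of each species. Alternatives were DESeq2 1.42.0, limma-voom (limma 3.58.1), other size factors, no filter, no block and leaving out each library. In a simulation of the aboral against oral comparison, run on 17025 genes, 65 of 100 genes changed 2-fold and 100 of 100 changed 4-fold were called, and 2 unchanged genes. Its counts were drawn from the means and dispersions of this fit, with no end difference particular to a colony. Only well-counted genes were changed. It shows recovery under the model's own assumptions and cannot give the error rate in the real libraries. Named genes were every member of lists of up to 12 genes, the 10 largest annotated changes per direction, up to 4 called members of longer lists, and pairs of opposite sign. Other members named were chosen after their values were seen. The lists and genes were chosen with earlier results of these data known. Clytia and uncut libraries were not analysed here.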

Additional observations from a re-analysis of the deposited data

Results flagged for a closer look

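The following 10 ortholog pairs had end differences of opposite sign in the 2 corals and the largest tested difference between them (species by end term of edgeR's quasi-likelihood fit, aboral minus oral in Pocillopora less the same in Astroides, log2 scale). For XP_027042432 the difference was -10.35 at 2.72 and 1.81 CPM aborally and 3.31 and 2.06 CPM orally in Pocillopora, and 5.12 and 6.27 CPM aborally and 0 and 0 CPM orally in Astroides. With 0 Astroides oral reads the value depends on the prior count, and Pocillopora itself showed no called end difference. The ammonium transporter gene XP_027047248 differed by 7.75, at 1000.1 and 289 CPM aborally and 285 and 73.2 CPM orally in Pocillopora, and 0 and 0 CPM aborally and 0.171 and 0.399 CPM orally in Astroides, so that its Astroides ortholog was hardly counted and the value again depends on the prior count. XP_027036386 differed by 7.60, at 14.9 and 15.4 CPM aborally and 0.155 and 0.263 CPM orally in Pocillopora, and 0.779 and 0.523 CPM aborally and 1.97 and 1.67 CPM orally in Astroides. The FGF domain gene XP_027060644 differed by -6.74, with the levels given above. XP_027040366 differed by -6.21, at 0.413 and 0.253 CPM aborally and 0.259 and 3.5 CPM orally in Pocillopora, and 3559 and 4244 CPM aborally and 182 and 262 CPM orally in Astroides, and was too low in Pocillopora to enter the test of the ends there. Lipase gene XP_027051091 differed by 6.01, at 228 and 159.5 CPM aborally and 4.14 and 10.5 CPM orally in Pocillopora, and 0.148 and 0.224 CPM aborally and 0.599 and 0.29 CPM orally in Astroides. A second lipase gene, XP_027051047, differed by 6.0, at 0.248 and 0.548 CPM aborally and 0.0517 and 0 CPM orally in Pocillopora, and 4.38 and 3.25 CPM aborally and 17.5 and 17.4 CPM orally in Astroides. It had 19 aboral reads and 1 oral read in Pocillopora and was not tested there. The receptor genes XP_027045190 and XP_027035771 differed by -5.26 and -4.83. The first stood at 1.07 and 1.01 CPM aborally and 5.69 and 0.963 CPM orally in Pocillopora, and 4.3 and 4.86 CPM aborally and 0.299 and 0.29 CPM orally in Astroides. Its ends overlapped in Pocillopora, where it was not called (edgeR adjusted p = 0.29) and the colonies did not share a direction. The other stood at 4.37 and 1.52 CPM aborally and 25 and 4.33 CPM orally in Pocillopora, and 3.9 and 4.56 CPM aborally and 0.428 and 0.798 CPM orally in Astroides. The von Willebrand A gene XP_027052911 differed by 5.17, as given above. The adjusted p of these 10 pairs lay between 0.00086 and 0.014 (edgeR). No cause of these differences was tested.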

How the results depend on the processing

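With no replicate block for colony, 0 genes were called between the ends and 0 past 2-fold, and leaving out each library gave 0 to 0 genes for both counts; these fits had no block, as 3 libraries leave no residual degree of freedom beside it, and a lone library was assumed to vary like the others. With no filter on low counts the calls past 2-fold rose to 279. The total was 1077 with DESeq2 size factors, 1921 with no filter, 1644 with DESeq2 (1271 shared), 1955 with limma-voom (1381 shared) and 1502 with edgeR's current mode (1378 shared), against 1381. Ortholog pairs that differed between the corals numbered 274 with a replicate block in both species, 75 with no replicate block, and 51 to 103 without 1 library, against 152. XP_027037964 ranged from -8.35 to 9.15 on the log2 scale without 1 library, the lowest without the aboral library of C5, and was -1.74 within colony C3 and 0.62 with DESeq2. Of 117 called genes chosen by the naming rule, DESeq2 size factors ended 6 calls and DESeq2 3. Genes with 0 or few oral reads give a lower bound or a wide ratio, and depth limits genes under the count filter.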
